A study of Homo sapiens with 4 samples.

Results

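Hep3B-C is a stem-like culture derived from Hep3B, an established human hepatoma cell line, and its gene expression was compared here with that of the parental line. The pair made up 2 of the 4 libraries of the study, whose other 2 libraries came from the hepatoma line Huh7 and its stem-like derivative Huh7-C. Hep3B was labelled as a hepatoma cell line and Hep3B-C as hepatic cancer stem cells, a name for tumour cells thought to self-renew and to seed new tumours. The labels gave total RNA and a standard Illumina library for both, and no treatment, time or growth medium, so what the cultures were grown in could not be set beside the results. Read counts were joined by gene ID. Of 15480 genes listed for the pair, 9867 (63.7%) had 50 or more counts summed over both libraries, and these were the genes compared. They held 98.5% of the 2896418 counts of Hep3B and 99.3% of the 4641927 counts of Hep3B-C.

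Each line was represented by 1 library, so no comparison had a replicate check and no p-value was computed. Differences between cultures, between library preparations and between the stem-like and parental state cannot be told apart. Levels are given as counts or as CPM, the usual scaling of a gene's counts by its library's total, and differences as the log2 ratio of CPM in Hep3B-C over Hep3B with 0.5 added to each count. The brackets after a ratio hold the exact 95% interval of a ratio of Poisson counts, which covers counting error only. A gene was called higher or lower when it differed at least 2-fold. A gene with 3 counts stood at 1.04 CPM in Hep3B and 0.646 CPM in Hep3B-C, and this floor was used for the lower bound of a fold against a library at 0.

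The label of Hep3B-C was checked against the parental lines. Of 117 genes with 50 or more counts in Hep3B and 0 in Huh7, 115 had a count in Hep3B-C and 41 had one in Huh7-C. Of 83 genes with 50 or more counts in Huh7 and 0 in Hep3B, 32 had a count in Hep3B-C, 9 of them with 10 or more, and all 83 had one in Huh7-C. Hep3B-C thus shared more of the genes particular to Hep3B than of those particular to Huh7. Over 16370 genes listed in either pair the Spearman correlation of levels with Hep3B-C was 0.871 for Hep3B, 0.860 for Huh7-C and 0.852 for Huh7, and the Huh7 pair had 0.964 with each other. All 12 hepatocyte markers passed the count minimum. ALB (albumin) led them in Hep3B, with 56598 counts there and 85731 in Hep3B-C, and SERPINA1 led them in Hep3B-C with 124896. None of the endothelial markers and 1 fibroblast marker passed the minimum, and the summed level of the listed fibroblast markers was 19.7 CPM in Hep3B and 11.4 CPM in Hep3B-C. Neural markers were not absent, with 4 of the 6 in the files passing and summed levels of 358 CPM in Hep3B and 254 CPM in Hep3B-C. Among blood cell markers 2 of the 5 in the files passed, with summed levels of 313 CPM in Hep3B and 452 CPM in Hep3B-C. Of the 9 cholangiocyte (bile duct cell) markers in the files, 4 passed, of which 3 were lower and 1 higher with a median log2 ratio of -1.70, and the summed level of the 9 was 576 CPM in Hep3B and 185 CPM in Hep3B-C.

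The pair differed widely. Of the 9867 genes, 1930 were higher in Hep3B-C (19.6%) and 3606 were lower (36.5%). At least 8-fold differences were found for 146 genes in the higher and 358 genes in the lower direction. The median log2 ratio over all genes was -0.45, so a gene at that value stood in the middle of the pair. Scaling by TMM, which trims genes of extreme ratio or level, moved every ratio by 0.60 and the median to 0.14. Relative to the median of -0.45, 28.2% of genes were past 2-fold higher and 25.5% past 2-fold lower. The counting interval excluded equal levels for 8232 genes, including all 5536 genes past 2-fold. Among the 43 genes with exactly 50 summed counts the median ratio was -0.79, and among the 43 genes with 49 counts, left out, it was -1.45.

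Long genes and AT-rich genes were lower in Hep3B-C as a class. The Spearman correlation of the ratio across genes, which are not independent replicates, was -0.467 with gene length and 0.658 with the GC content of the transcript. In the shortest decile of genes (145 to 1292 bases) 39.3% were higher and 9.93% lower, whereas in the longest decile (6632 bases or more) 2.13% were higher and 71.1% lower. By GC content the contrast was wider. In the decile of lowest GC 0.305% were higher and 79.5% lower, and in the decile of highest GC 56.4% were higher and 4.89% lower. The count-weighted mean gene length was 4201 bases in Hep3B and 3163 bases in Hep3B-C. In the Huh7 pair the correlation with length had the opposite sign (0.351), the median ratio was 0.066, and 5.77% of genes were higher and 5.22% lower. The part of these trends in any single gene's ratio was not tested.

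**Figure D1:**
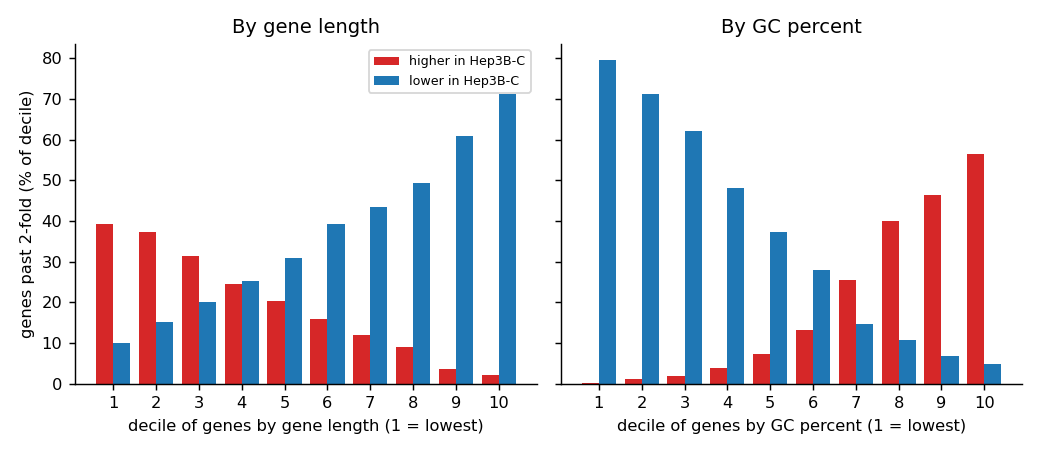
Percent of genes past 2-fold in Hep3B-C against Hep3B, for deciles of genes by length (left) and by transcript GC percent (right). Red bars are genes higher and blue bars genes lower in Hep3B-C. The share of genes lower runs from 9.93% in the shortest to 71.1% in the longest decile, and from 79.5% to 4.89% with GC.

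Ratios were therefore also read relative to genes of like length, by subtracting a running median, and relative to genes of like GC content and length. The length-adjusted ratio still had a Spearman correlation of 0.607 with GC content. After removal of the length trend 23.4% of genes were higher and 22.0% lower, and after removal of both trends 13.4% and 15.4%. The CPM ratio and the length-adjusted ratio called 1531 genes higher and 1874 lower together, and all 3 scales called 756 higher and 946 lower. For 986 genes past 2-fold the sign turned when both trends were removed. Of 39 gene lists of pathways and functions, 29 kept the sign of their median under each scaling and adjustment, 16 higher and 13 lower.

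**Figure D2:**
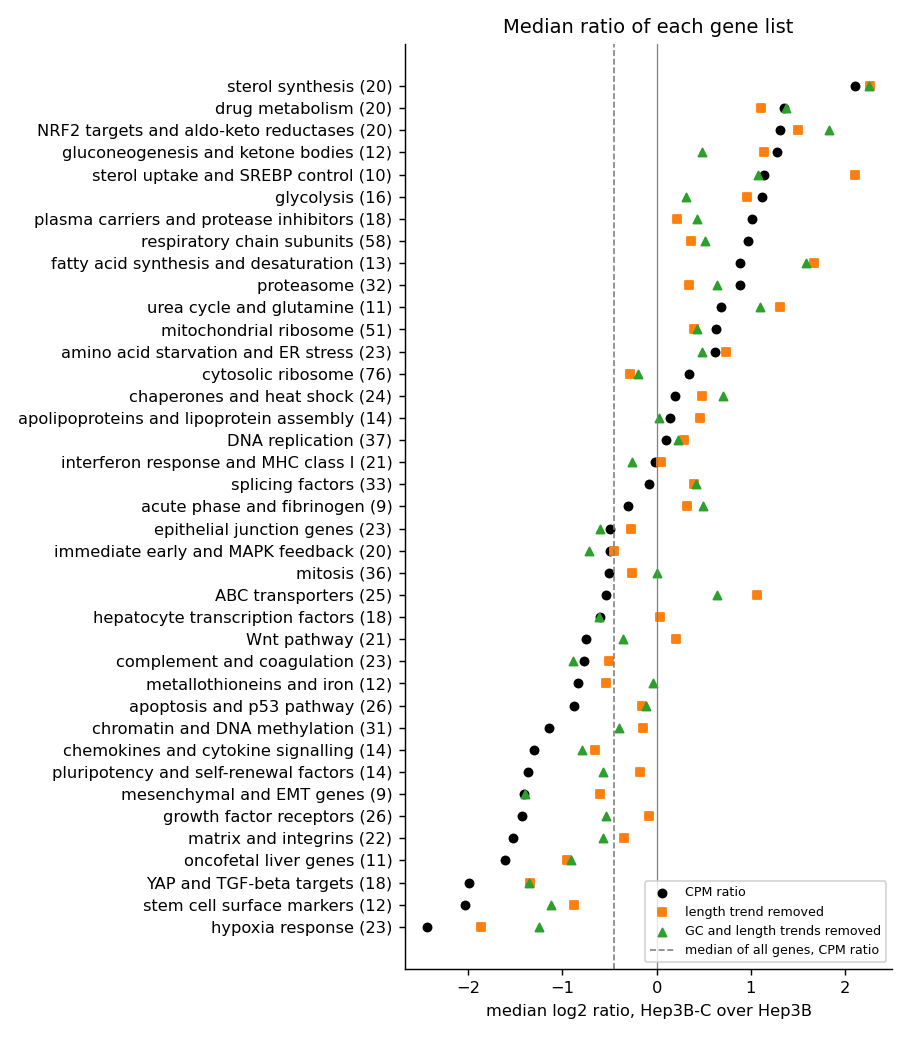
Median log2 ratio, Hep3B-C over Hep3B, of each gene list with 8 or more members of at least 50 counts (number in brackets). Black circles are CPM ratios, orange squares have the length trend removed and green triangles both the GC and length trends, and the dashed line is the all-gene median of -0.45. By CPM ratio sterol synthesis lies furthest right at 2.11 and hypoxia response furthest left at -2.44.

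Cells make cholesterol from acetyl-CoA through the mevalonate pathway, and make fatty acids from the same precursor with ATP citrate lyase, acetyl-CoA carboxylase and fatty acid synthase. Transcription factors of the SREBP family raise the genes of both pathways when membrane sterol is low. Oxygen shortage acts through hypoxia-inducible factors, which bind ACGTG-containing elements near genes of glycolysis, collagen modification and vessel growth. Both programmes are well studied in liver cancer. By CPM the sterol synthesis list had the highest median of the 39 lists (2.11) and hypoxia response the lowest (-2.44). Fatty acid synthesis, at 0.89, lay below several other lists. With both trends removed the mesenchymal list (-1.40) and the YAP and TGF-beta targets (-1.35) were lower than hypoxia response (-1.25).

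The upstream sequences below show where short motifs of these programmes stand. From each list they show the 3 members with the most extreme ratios among those that had a RefSeq entry and held the motif, so they were chosen for the match. Each is the 250 bases before the first base of a RefSeq transcript (GRCh38.p14), 5′ to 3′ along the gene. In the hypoxia genes the capitals mark TACGTG or its complement, CACGTA. LOX lies at chr5:122078260-122078509 (minus strand), PLOD2 at chr3:146161185-146161434 (minus strand) and P4HA1 at chr10:73096867-73097116 (minus strand).
LOX: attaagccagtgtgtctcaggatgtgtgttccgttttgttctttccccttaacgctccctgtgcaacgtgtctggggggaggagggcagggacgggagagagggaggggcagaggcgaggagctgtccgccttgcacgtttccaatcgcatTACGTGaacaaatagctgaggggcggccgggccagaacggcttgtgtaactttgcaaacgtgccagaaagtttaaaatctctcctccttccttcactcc
PLOD2: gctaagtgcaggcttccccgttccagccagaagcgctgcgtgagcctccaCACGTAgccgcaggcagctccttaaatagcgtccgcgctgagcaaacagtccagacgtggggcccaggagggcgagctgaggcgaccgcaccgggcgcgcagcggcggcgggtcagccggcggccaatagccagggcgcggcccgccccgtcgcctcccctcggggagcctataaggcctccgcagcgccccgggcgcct
P4HA1: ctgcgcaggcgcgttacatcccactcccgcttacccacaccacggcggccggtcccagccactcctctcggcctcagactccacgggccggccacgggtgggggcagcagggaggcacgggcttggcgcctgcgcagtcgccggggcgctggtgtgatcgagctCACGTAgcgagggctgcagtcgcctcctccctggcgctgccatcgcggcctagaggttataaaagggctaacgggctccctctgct

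In the sterol synthesis genes the capitals mark CCAAT or its complement, ATTGG, the element bound by nuclear factor Y, a partner of the SREBPs, and 1 run in NSDHL holds both, overlapping. MVD lies at chr16:88663092-88663341 (minus strand), NSDHL at chrX:152830813-152831062 (plus strand) and TM7SF2 at chr11:65111622-65111871 (plus strand).
MVD: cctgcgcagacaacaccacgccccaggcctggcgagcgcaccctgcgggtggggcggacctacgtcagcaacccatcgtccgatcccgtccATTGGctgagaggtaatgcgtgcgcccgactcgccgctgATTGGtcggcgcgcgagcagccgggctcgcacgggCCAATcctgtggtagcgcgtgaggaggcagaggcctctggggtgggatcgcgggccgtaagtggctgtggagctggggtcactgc
NSDHL: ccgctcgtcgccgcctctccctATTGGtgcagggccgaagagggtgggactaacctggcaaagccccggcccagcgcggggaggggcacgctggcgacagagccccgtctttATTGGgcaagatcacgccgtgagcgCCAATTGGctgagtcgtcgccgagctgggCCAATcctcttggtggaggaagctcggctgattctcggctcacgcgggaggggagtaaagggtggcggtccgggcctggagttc
TM7SF2: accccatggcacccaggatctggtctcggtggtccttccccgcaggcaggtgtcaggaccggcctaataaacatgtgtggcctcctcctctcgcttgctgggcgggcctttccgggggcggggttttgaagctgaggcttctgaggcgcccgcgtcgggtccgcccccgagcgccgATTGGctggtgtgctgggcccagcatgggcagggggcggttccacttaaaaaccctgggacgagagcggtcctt

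Both strands were searched in every start listed for a gene. TACGTG was found in 8 of 20 hypoxia members with a RefSeq entry, against 3.91% of 8110 genes of the comparison, and the shorter ACGTG that it contains was found in 13 of the 20, against 30.1%. CCAAT was found in 13 of 15 sterol synthesis members with an entry and in 7 of 12 fatty acid members, against 42.5%. The sterol element letters CACCCCAC were found in none of the 15 or the 12, against 3.18%, and CACCCGAC in 2 of the 15 and none of the 12, against 0.826%. A match describes the letters only, and binding was not measured.

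Genes of sterol synthesis were higher in Hep3B-C as a near-complete set. All 20 listed enzymes passed the minimum, 19 were past 2-fold higher and none was lower, with a median log2 ratio of 2.11 and 2.27 after the length adjustment. MVD, which makes isopentenyl diphosphate, had 56 counts in Hep3B and 1401 in Hep3B-C, a ratio of 3.95 (3.58 to 4.38). NSDHL, which removes a methyl group from the sterol ring, had 49 and 791 counts. FDFT1, the squalene synthase that commits the pathway to sterols, had 285 and 4265 counts, a ratio of 3.22 (3.05 to 3.40). The branch enzyme FDPS had 184 and 1197 CPM. The smallest differences were for SC5DL, with 65.3 and 106 CPM and a ratio of 0.70, and for IDI1, with 49.4 and 109 CPM and a ratio of 1.14. SC5DL was the member under 2-fold, and its 7019 bases made it one of the longest, with a length-adjusted ratio of 2.14.

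Genes of sterol uptake and SREBP control had a median of 1.14, with 6 of the 10 members that passed higher and 1 lower. NPC1L1, which takes up cholesterol, had 185 counts in Hep3B and 1621 in Hep3B-C, a ratio of 2.45 (2.23 to 2.68). INSIG1, which holds SREBPs in the endoplasmic reticulum and is itself an SREBP target, had 47 and 515 counts, a ratio of 2.76 (2.34 to 3.24). Its relative INSIG2 moved the other way, with 116 and 38 counts and a ratio of -2.28. SCAP, the SREBP escort, stood at 1.57 and SREBF2 at 1.08. SREBF1, which encodes the factor of the fatty acid genes, stood at 0.81, and its sign turned to -0.15 with the GC and length trends removed.

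Fatty acid synthesis was led by FASN. FASN, the fatty acid synthase, had 1894 counts in Hep3B (654 CPM) and 48019 in Hep3B-C (10345 CPM), a 15.8-fold difference. It took 1.03% of all counts in Hep3B-C and ranked the fifth there by counts. Of the 13 listed members that passed, 6 were higher and none was lower, with medians of 0.89 by CPM and 1.67 with the length trend removed. ACSS2, which makes acetyl-CoA from acetate, had 37 and 808 counts, a ratio of 3.75 (3.29 to 4.29). The desaturases FADS2 and SCD stood at 2.37 and 1.55, and ACLY, which makes cytosolic acetyl-CoA, at 1.74. ACACA, the carboxylase at the committed step, had 362 and 1074 counts, a ratio of 0.89, and is encoded by a long transcript of 10663 bases (length-adjusted 2.72). MLXIPL, a glucose-responsive factor, and ELOVL6, an elongase, lay at 0.13 and 0.12.

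**Figure D3:**
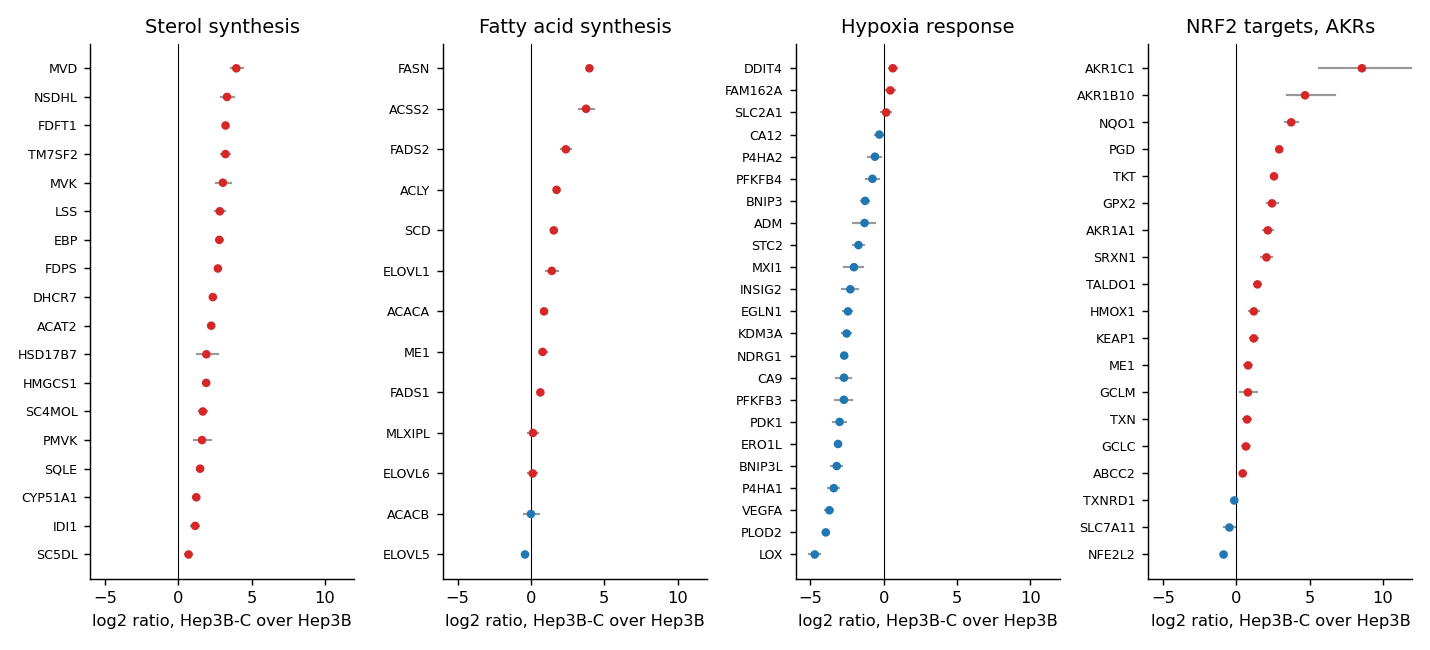
Log2 ratio, Hep3B-C over Hep3B, of the members with 50 or more counts in 4 lists (18 of the 20 sterol synthesis and 19 of the 20 NRF2 members are drawn). Points are ratios of CPM and grey lines 95% counting intervals, cut off at 12. Each drawn sterol synthesis gene lies right of 0, and 20 of the 23 hypoxia genes lie left of it.

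Hypoxia response genes were lower in Hep3B-C. None of the 23 members that passed was past 2-fold higher and 17 were past 2-fold lower, with a median of -2.44 by CPM, -1.86 after the length adjustment and -1.25 with both trends removed. The lowest member was LOX. LOX, which crosslinks collagen, had 1032 counts in Hep3B and 63 in Hep3B-C, a 26.3-fold difference. PLOD2, the lysyl hydroxylase, had 2087 and 216 counts, and P4HA1, a prolyl hydroxylase subunit, had 452 and 68. VEGFA, the vessel growth factor, had 1151 and 141 counts, a ratio of -3.71 (-3.97 to -3.46). ERO1L, an oxidase of protein folding, stood at -3.12, the mitophagy receptor BNIP3L at -3.20 and PDK1, which restrains entry of pyruvate into mitochondria, at -3.01. The oxygen-sensing prolyl hydroxylase EGLN1 had 390 and 115 counts. CA9, the carbonic anhydrase often used as a hypoxia marker, had 185 and 45 counts, a ratio of -2.71 (-3.22 to -2.24). Not every member was lower. SLC2A1, the glucose transporter, had 35.9 and 40.3 CPM, a ratio of 0.16 (-0.19 to 0.53), and DDIT4 stood at 0.62, turning to -0.45 with both trends removed.

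**Figure D4:**
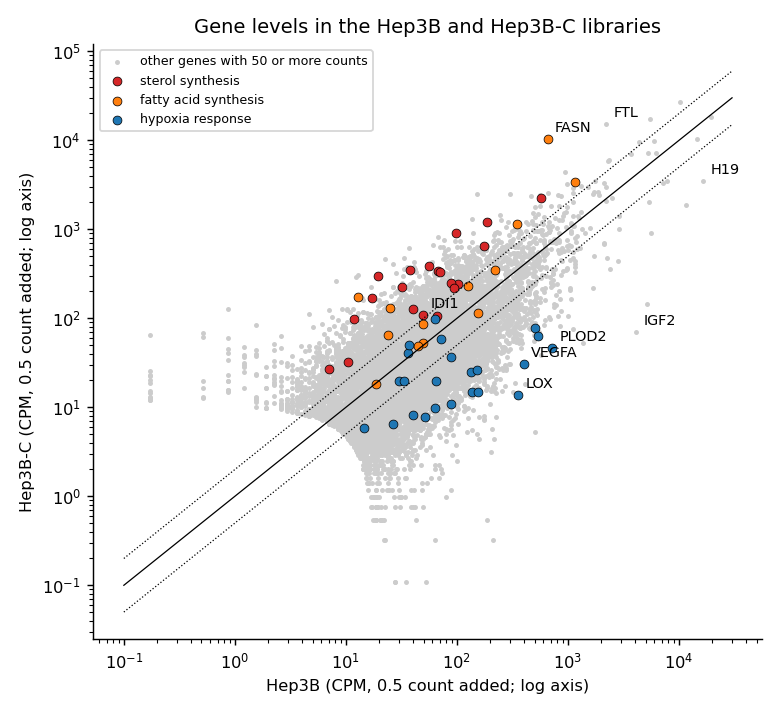
Level of each gene with 50 or more counts in Hep3B (x axis) and Hep3B-C (y axis), in CPM on log axes with 0.5 added to each count. The solid line marks equal levels and the dotted lines 2-fold; 19 of the 20 sterol genes (red) and 6 of the 13 fatty acid genes (orange) lie above the upper dotted line, and 17 of the 23 hypoxia genes (blue) below the lower one.

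Glycolysis genes, many of which are also hypoxia-responsive, split. Of the 16 that passed, 9 were higher and 2 lower, with a median of 1.12, or 0.32 with both trends removed. ENO1 (enolase) had 2714 and 20699 counts, a ratio of 2.25, TPI1 stood at 2.12 and GAPDH at 1.66. LDHA, which turns pyruvate into lactate, had 6563 counts in Hep3B and 2181 in Hep3B-C, a ratio of -2.27 (-2.34 to -2.20). HK2, the hexokinase of many tumours, stood at -1.46 but at 0.00 relative to genes of its length. PGK1 had 358 and 290 CPM. Among the list of gluconeogenesis and ketone body genes 7 of 12 were higher and 1 lower with a median of 1.28, or 4 higher and 1 lower with a median of 0.48 with both trends removed. The lower gene was PPARGC1A, a coactivator of mitochondrial and gluconeogenic genes, with 109 and 11 counts, while PC, the pyruvate carboxylase, stood at 2.01 and PCK2 at 2.12.

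Of the subunits of the respiratory chain 29 of 58 were past 2-fold higher by CPM and 1 lower, with a median of 0.97. These are short genes, with a median length of 800 bases. After the length adjustment 15 were higher and 5 lower with a median of 0.36, a share near the 23.4% of all genes that were higher on that scale, and with both trends removed 20 were higher and none lower with a median of 0.51. ATP5G1, a subunit of ATP synthase, had 37 and 379 counts, and UQCRC1 of complex III had 228 and 1951. The proteasome list had 13 of 32 higher and none lower with a median of 0.88, and PSMB3 stood at 2.68. After the length adjustment 8 were higher and 5 lower with a median of 0.34, beside 23.4% and 22.0% of all genes. With both trends removed 11 were higher and none lower with a median of 0.65. The mitochondrial ribosome had 18 of 51 higher and 1 lower with a median of 0.63 by CPM, but 12 higher and 10 lower with a median of 0.39 after the length adjustment, near the shares of all genes. The 76 cytosolic ribosomal protein genes had a median of 0.35, which turned to -0.29 with the length trend removed, and RPL26 was lowest among those that passed, at -1.79.

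Genes of amino acid starvation and serine synthesis were higher. In the list of 23 that passed, 10 were higher and none lower, with a median of 0.62. TRIB3, a stress-induced pseudokinase, had 107 counts in Hep3B and 2895 in Hep3B-C, a ratio of 4.07 (3.80 to 4.37). PHGDH, the first enzyme of serine synthesis, had 109 and 1575 counts, and ASNS, the asparagine synthetase, had 130 and 742. The paired transporter chains SLC7A5 and SLC3A2 both stood at 2.96. Genes of unfolded protein stress lay nearer to equal levels. DDIT3 had 24.9 and 22.2 CPM, a ratio of -0.17 (-0.61 to 0.29), and the chaperone HSPA5 stood at -0.69, which turned to 0.15 with the length trend removed. In the urea cycle CPS1, its mitochondrial entry enzyme, had 439 and 11422 counts, a 16.2-fold difference. ASS1 and ASL, which follow in the cycle, stood at 2.25 and 2.40, and ARG1, which releases urea, at -2.37 (-3.08 to -1.74). The glutamine transporter SLC1A5 stood at 2.11.

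Genes of oxidant defence and drug metabolism were higher. In the list of NRF2 targets and aldo-keto reductases 12 of 20 were higher and none lower, with a median of 1.31, or 1.83 with both trends removed. AKR1C1, a ketosteroid and carbonyl reductase, had 0 counts in Hep3B and 301 in Hep3B-C, at least 62.6-fold higher. NQO1, the quinone reductase used as a readout of NRF2, had 48 and 1033 counts, a ratio of 3.73 (3.33 to 4.20). PGD and TKT belong to the pentose phosphate pathway, which supplies NADPH and sugar phosphates. PGD had 280 and 3392 counts and TKT 312 and 2957, with ratios of 2.92 and 2.56. NFE2L2, which encodes NRF2, was not higher, with 529 and 462 counts and a ratio of -0.88.

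Of the drug metabolism genes 40 were listed for the pair and 20 passed, of which 14 were higher and none lower, with a median of 1.36. CYP2B6, a cytochrome P450, had 37 and 1409 counts, a ratio of 4.55 (4.10 to 5.08). UGT2B10, a glucuronosyltransferase, had 0 and 118 counts, at least 24.5-fold higher. EPHX1, the microsomal epoxide hydrolase, had 119 and 1741 counts, and POR, the electron donor of the P450s, stood at 1.76. AKR1C, UGT1A and UGT2B genes have near-identical relatives, and how reads with several matches were counted was not stated, so the split within these families is uncertain. The ABC transporters, which include drug efflux pumps, had 6 of 25 higher and 5 lower, and their median of -0.54 turned to 1.07 with the length trend removed and to 0.06 with TMM. ABCB6 had 76 and 1039 counts, ABCG2, a marker of side-population cells, 8 and 47, and ABCB1 37.6 and 46.3 CPM, a ratio of 0.30 (-0.04 to 0.65). The ratio of ABCB1 was 1.49 with the length trend removed and 1.85 with both trends removed.

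Of the 12 metallothionein and iron genes that passed, 2 were higher and 5 lower, near the 19.6% and 36.5% of all genes. Their median was -0.84 by CPM and -0.04 with both trends removed. Ferritin and the transferrin receptor are regulated in opposite ways by cellular iron. FTL, the ferritin light chain, had 6391 counts in Hep3B and 70737 in Hep3B-C, and ranked the fourth by counts in Hep3B-C. TFRC, the transferrin receptor, had 1933 and 476 counts. The ratios of FTL and TFRC were 2.79 and -2.70, or 1.58 and -0.96 with both trends removed. FTH1, the ferritin heavy chain, stood at 0.35 and at -0.22 after the length adjustment.

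Surface markers used to enrich liver cancer stem cells were mostly lower by CPM in the culture labelled as stem cells. The list held 16 markers, of which 14 were listed for the pair. THY1, which encodes CD90, and CD44 were not listed and could not be compared. Of 12 that passed, 10 were lower and 1 higher, with a median of -2.03. After the length adjustment 5 were lower and 2 higher, with a median of -0.88. With both trends removed 7 were lower and none higher, with a median of -1.12. CD24 had 4904 and 1005 counts, a ratio of -2.97 (-3.07 to -2.87). PROM1, which encodes CD133, had 1076 and 361 counts, a ratio of -2.25 (-2.43 to -2.08). EPCAM had 1489 and 820 counts, a ratio of -1.54, and LGR5, a Wnt-linked stem cell receptor, had 202 and 48. The member higher by CPM was DLK1, a fetal liver surface protein, with 437 and 2951 counts. Its ratio was 2.07, or 0.96 with both trends removed. ANPEP, which encodes CD13, stood at 0.59. The pluripotency list had 8 of 14 lower and none higher, with a median of -1.36 that was -0.18 after the length adjustment. With both trends removed its median was -0.57, with 4 lower and none higher. POU5F1, NANOG and SOX2, the core factors of embryonic stem cells, were below the minimum, with 5 and 0, 10 and 6, and 0 and 14 counts.

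Oncofetal genes, which the fetal liver uses and hepatomas switch back on, were mostly lower by CPM. Of 11, 8 were lower and 1, DLK1, was higher, with a median of -1.60. After the length adjustment 5 were lower and 2 higher with a median of -0.96, and with both trends removed 4 were lower and none higher with a median of -0.91. IGF2, the fetal growth factor, had 11888 counts in Hep3B and 326 in Hep3B-C, a 58.4-fold difference. H19, its imprinted neighbour, had 48007 and 16046 counts and ranked the second by counts in Hep3B. AFP, alpha-fetoprotein, had 16175 and 4201 counts, a ratio of -2.63 (-2.67 to -2.58), and SALL4, a fetal liver transcription factor, had 78 and 4. GPC3 was less different, with 995 and 586 CPM.

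Secreted hepatocyte proteins moved in both directions. Among plasma carriers and protease inhibitors 9 of 18 were higher and 4 lower with a median of 1.01. After the length adjustment 6 were higher and 5 lower with a median of 0.22, beside 23.4% and 22.0% of all genes. SERPINA1, a protease inhibitor and the gene with the most counts in Hep3B-C, had 29292 and 124896 counts, 2.69% of its library, and RBP4, the retinol carrier, had 716 and 5908. CP, the copper carrier ceruloplasmin, had 3959 and 245 counts, a 25.9-fold difference. ALB was near equal at 19541 and 18469 CPM, but its ratio was 1.02 with both trends removed. Complement and coagulation genes were lower in 11 of 23 and higher in 2, with a median of -0.77 by CPM. The median was -0.50 after the length adjustment and -0.88 with both trends removed. C3, the central complement protein, had 33110 and 8811 counts and KNG1, the kininogen gene, 779 and 80. The 2 higher were PLG (plasminogen), with 3 and 171 counts and a ratio of 4.93 (3.58 to 7.44), and SERPINC1 (antithrombin), with 3 and 147. Among hepatocyte transcription factors the median of -0.61 turned to 0.04 after the length adjustment. With both trends removed it was again -0.61, with 7 of 18 lower and none higher. ONECUT1 had 269 and 22 counts and NR1H4, the bile acid receptor, 165 and 16, whereas FOXA3 stood at 1.86 and HNF4A at 0.54.

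Mesenchymal genes did not stand higher in Hep3B-C as a list, with 7 of 9 lower, 1 higher and a median of -1.40. After the length adjustment 4 were lower and 1 higher, with a median of -0.60. With both trends removed 5 were lower and none higher, with a median of -1.40. VIM (vimentin) had 1443 and 304 counts, a ratio of -2.93 (-3.11 to -2.75). FN1 (fibronectin) stood at -1.40, and at 0.21 after the length adjustment. The member higher by CPM was TGFB1, the ligand, with 275 and 2075 counts. Among 23 epithelial junction genes 6 were higher and 11 lower, beside 19.6% and 36.5% of all genes. Their median of -0.49 turned to 0.10 with TMM and was -0.60 with both trends removed. CDH1 (E-cadherin) had 1035 and 512 counts and CLDN1 2158 and 679, while the keratin KRT18 had 1903 and 11994 and the desmosomal PKP3 had 4 and 175. CLDN4 had 0 and 58 counts, at least 12.1-fold higher.

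Targets of YAP and TGF-beta, which report on cell shape and on SMAD signalling, were lower. Of 18 that passed, 14 were lower and 2 higher, with a median of -1.99, -1.34 after the length adjustment and -1.35 with both trends removed. ANKRD1, a YAP target, had 79 and 0 counts, at least 42.2-fold lower. ID1 and ID2, inhibitors of basic helix-loop-helix factors induced by BMP, had 230 and 4 and 966 and 86 counts. ID3, below the minimum, had 38 and 0. CTGF stood at -2.53, and TEAD4, a partner of YAP, was among the 2 higher at 2.00. Chemokine and cytokine genes showed 8 of 14 lower and none higher, with a median of -1.30. The median was -0.65 after the length adjustment and -0.79 with both trends removed. IL8 had 151 and 0 counts, at least 80.7-fold lower, CXCL1 had 258 and 26, and CCL20 1487 and 528. Of growth factor receptors 16 of 26 were lower and 3 higher, but the median of -1.43 was -0.08 relative to genes of the same length. With both trends removed the median was -0.53, with 8 lower and none higher. FGFR2 had 297 and 30 counts, a ratio of -3.97 (-4.58 to -3.44), EGFR stood at -2.24, and FGFR4, the hepatocyte FGF receptor, had 443 and 2624 counts.

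Cell cycle genes gave no single direction. By CPM 19.6% of all genes were higher and 36.5% lower. The DNA replication list had 7 of 37 higher, near the share of all genes, and 5 lower, with a median of 0.10. It was led by CDT1, a licensing factor, at 2.43 and MCM2, a helicase subunit, at 1.59. The mitosis list had 2 of 36 higher and 17 lower, but its median of -0.51 turned to 0.09 with TMM and to 0.01 with both trends removed. CENPF had 2899 and 495 counts and CDC20 222 and 1439. MKI67, the proliferation marker, stood at -1.47 and at 0.45 relative to genes of its length. CDKN1A, the p21 inhibitor, had 7 and 295 counts, a ratio of 4.62 (3.66 to 6.04), BAK1, a death effector, had 79 and 895, and BIRC3, an inhibitor of apoptosis, had 629 and 20. Interferon response genes had 5 of 21 higher, near the share of all genes, and 4 lower. OAS1 had 2 and 70 counts and IFI6 133 and 16.

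The genes with the largest differences that also held after the length adjustment were ranked by the bound of the counting interval nearest to equal levels. The 15 highest ratios included secreted and matrix proteins. AGR2, a disulfide isomerase of secretory cells, had 2 and 590 counts, a ratio of 7.20 (5.66 to 10.57), and COL2A1, a cartilage collagen, had 1 and 317, a ratio of 7.05 (5.14 to 12.94). TIMP1, a metalloprotease inhibitor, had 4 and 391 counts. UCHL1, a neuronal ubiquitin hydrolase, had 23 and 1230, a ratio of 5.03 (4.47 to 5.72), and SST (somatostatin) had 0 and 103, at least 21.4-fold higher. Others were metabolic, such as UGT1A1, a bilirubin glucuronosyltransferase, with 2 and 279 counts, UROC1 of histidine breakdown with 2 and 207, ALDH1L1 of folate metabolism with 0 and 106, and PGAM2, a muscle glycolytic enzyme, with 35 and 1337. FLNC, an actin crosslinker with a transcript of 9138 bases, went against the length trend with 64 and 2172 counts. AKR1C1, BEX5, UGT2B10, CYP2B6 and PDIA2 completed the 15.

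The 15 lowest ratios included DSE, an enzyme of dermatan sulfate synthesis, with 610 and 1 counts and a ratio of -9.35 (-15.24 to -7.45). NRXN3, a neurexin, had 543 and 2 counts, a ratio of -8.44 (-11.81 to -6.91), and LGI4 had 182 and 1. GJA1, the gap junction protein connexin 43, had 100 and 0, at least 53.4-fold lower, and RYR2, a calcium channel, had 79 and 0. The nuclear long noncoding RNAs NEAT1 and MALAT1 had 1474 and 24 and 15014 and 664 counts, with MALAT1 at 5184 CPM in Hep3B and 143 CPM in Hep3B-C. C8orf4, PLD5 and SYCP2 were also among them, with IGF2, IL8, ID1, ANKRD1 and BIRC3 described above. Whether the nuclear RNA share of the libraries differed was not tested.

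**Figure D5:**
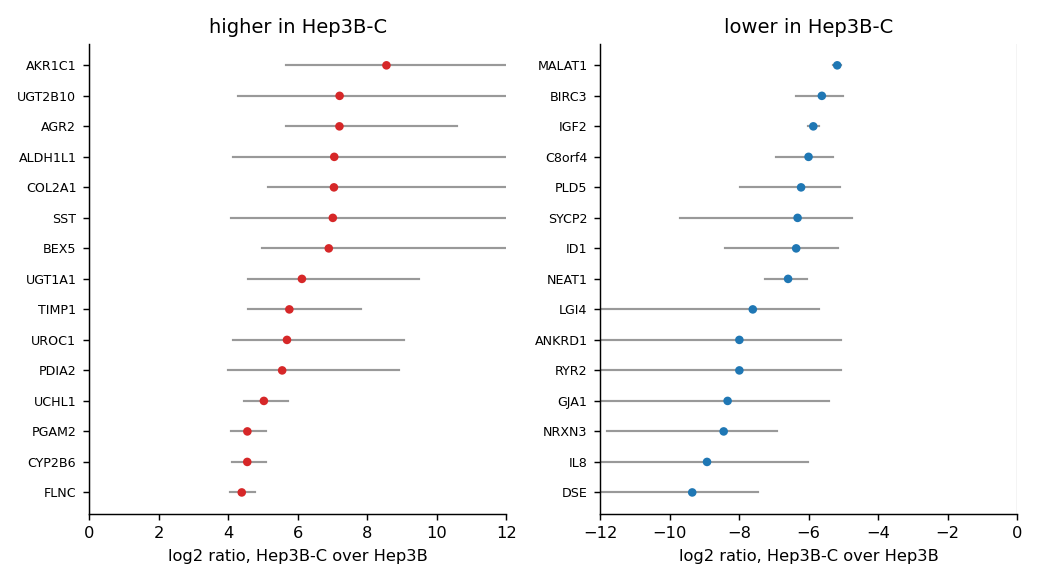
Log2 ratio, Hep3B-C over Hep3B, of the 15 genes ranked highest (left) and lowest (right). Points are ratios of CPM with 0.5 added to each count and grey lines 95% counting intervals, cut off at 12 and -12, so genes with 0 to 2 counts in a library have intervals that run to or near the edge. The point of a gene at 0 in a library is not a bound.

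Gene Ontology process terms were ordered by their length-adjusted median, a scale that still carried the GC trend. Among terms with 20 or more genes that passed, cholesterol biosynthetic process had the highest, 2.45 over 22 genes. Its median was 2.16 with both trends removed. By CPM 18 of its genes were higher and 2 lower, and after the length adjustment 18 were higher and none lower. Cellular amino acid metabolic process followed at 1.37 over 26 genes and response to toxin at 1.13 over 27. With both trends removed they were at 0.88 and 0.55. Axon guidance was lowest at -1.07 over 20 genes, with response to virus at -0.76 over 37 and integrin-mediated signaling pathway at -0.81 over 26. With both trends removed these 3 were at -1.02, -0.29 and -0.47. The integrin term, at -1.99 by CPM, holds long genes. In the list of matrix and integrin genes 14 of 22 were lower and 3 higher, with a median of -1.53 by CPM. The median was -0.35 after the length adjustment and -0.57 with both trends removed. COL5A2, a fibrillar collagen, had 509 and 37 counts, and LAMA4, a laminin chain, 1 and 60.

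The Huh7 pair, described with the same steps, gave other values for lists described above. Its median ratio, Huh7-C over Huh7, was 0.59 for sterol synthesis and 0.65 for fatty acid synthesis, the same sign as in the Hep3B pair, where they were 2.11 and 0.89. For hypoxia response it was -0.07 against -2.44. For NRF2 targets it was 0.43 against 1.31 and for stem cell surface markers -0.04 against -2.03. Other lists above fatty acid synthesis in the Hep3B pair had the opposite sign in Huh7. Drug metabolism was at -0.05 against 1.36, and gluconeogenesis and ketone bodies at -1.02 against 1.28. With 1 library a line the differences between the pairs were not tested.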

How the data were processed

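Libraries of Hep3B and Hep3B-C came from total RNA and were read on a Genome Analyzer II (Illumina). The authors trimmed adapters and low-quality reads, mapped the rest with NextGENe (version not given in the sources used here) to NCBI Build 36.1, and deposited raw counts of reads for each gene beside its length. Strand and the handling of multiply matched reads were not given in the sources used here. The counts were joined by gene ID and scaled to each total. Genes with 50 or more summed counts were kept and 0.5 was added for ratios. Intervals were exact (scipy 1.17.1) at the 95% level. Length and GC trends were running medians over 501 genes, with GC taken from GENCODE 29 transcripts for 9815 genes. The intervals and the length adjustment were run on simulated data as a check of the calculation only. Unlike the pair, the simulated data had few changed genes and no GC trend. Size factors came from edgeR 4.0.16 (TMM) and DESeq2 1.42.0. The DESeq2 factor was 1 for both libraries of the pair, which left their counts unscaled. Named genes were the 15 highest and lowest by interval bound, the most abundant, and for each list the extreme members and those whose role defines it. Some genes stand in more than 1 list. Members and lists were chosen with earlier results of these data known. Symbols are those of the files. Alternatives were other scalings, minimums, an added count of 5, and removal of the trends.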

Additional observations from a re-analysis of the deposited data

Results flagged for a closer look

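The median log2 ratios of 15 gene lists had opposite signs in the Hep3B and Huh7 pairs, both by CPM and after the length adjustment. With 1 library a line the differences were not tested. The Hep3B pair stood above the Huh7 pair by 2.77 for plasma carriers and protease inhibitors (1.01 and -1.76), by 2.30 for gluconeogenesis and ketone bodies (1.28 and -1.02), by 1.44 for respiratory chain subunits (0.97 and -0.46) and by 1.41 for drug metabolism (1.36 and -0.05). It stood above by 1.23 for apolipoproteins, 1.17 for glycolysis, 1.06 for the proteasome, 0.85 for urea cycle and glutamine genes and 0.73 for amino acid starvation genes. The difference was -1.73 for oncofetal liver genes (-1.60 and 0.12), -1.49 for chromatin genes (-1.15 and 0.34), -1.27 for immediate early genes (-0.50 and 0.77) and -1.16 for mitosis (-0.51 and 0.65). It was -0.66 for epithelial junction genes. For ABC transporters it was -0.72 by CPM (-0.54 and 0.18), but the order of the pairs turned after the length adjustment, with medians of 1.07 and -0.06. In the Hep3B pair the medians of the immediate early, mitosis, epithelial junction and ABC transporter lists turned positive with TMM (0.10, 0.09, 0.10 and 0.06). With DESeq2 size factors, which were 1 for both libraries, these medians were 0.18, 0.17, 0.19 and 0.14. The opposite sign of these lists to the CPM medians of the Huh7 pair was thus lost. After the length adjustment the Hep3B median was 0.22 for plasma carriers and protease inhibitors and -0.15 for chromatin genes, and with both trends removed it was 0.48 for gluconeogenesis and ketone bodies.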

How the results depend on the processing

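No paired analysis was possible because each line had 1 library and the labels carried no replicate numbers. No library could be left out for the same reason. The 1930 genes higher became 3090 with TMM and 3263 with DESeq2 size factors. The DESeq2 factor was 1 for both libraries, so that setting compared counts without scaling for depth. The 3606 lower became 2183 with TMM, 1998 with DESeq2 size factors, 2167 with the length trend removed, 1509 with the GC and length trends removed, 6766 with no minimum and 1873 with a minimum of 200 counts. The split of calls thus turned from mostly lower to mostly higher with TMM and with the unscaled counts. Under the other alternatives run, both counts stayed within 1.5 times. The correlation with length was -0.518 with a minimum of 200 counts. None of the 19 lists with a median past 2-fold turned sign under an alternative run. Of 135 named genes past 2-fold, 2 did: FN1 was at 0.21 with the length trend removed, and MKI67 was at 0.45 there and at 0.041 with both trends removed. The 15 highest and 15 lowest genes were ranked only if they held after the length adjustment, so they could not turn there. Among all 5536 genes past 2-fold, 986 turned sign with both trends removed. The cause of these shifts was not tested. Depth limits genes of low counts: the median width of the counting interval was 1.57 on the log2 scale for genes with fewer than 100 summed counts and 0.42 for those with 500 or more.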
